A study of Ziziphus jujuba with 15 samples.

Results

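The step from 1 d to 3 d of heat stress was examined in seedling leaves of ‘HS’ (HS-Haoqing1), a jujube cultivar described as heat sensitive. All 32876 genes of the deposited expression table were taken, and the 3 libraries at 3 d were compared with the 3 libraries at 1 d, 6 of the 15 libraries of the series. Both groups came from heated seedlings of the same cultivar at 45 °C. The methods of the study give this temperature from morning to late evening, so the heat need not have been unbroken. The comparison reads what changed with further days of heat and not the response to heat itself. Values before heat (0 d) and at 5 d are given beside the results only to place the levels. These libraries also entered the filter on low FPKM and the estimate of the spread behind the p-values. Expression was given as FPKM, which scales the fragments of a gene to its length and to the depth of the library. The deposited labels say that RNA of separately extracted replicates was pooled, whereas the methods of the study speak of biological replicates, so the p-values measure the spread between these libraries, which may be partly technical.

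Heat unfolds proteins in plant cells. Heat stress transcription factors (HSFs) then switch on genes for heat shock proteins (HSPs), chaperones that hold or refold the damaged proteins, while ubiquitin ligases mark what cannot be saved for the proteasome. In leaves, photosystem II and the antenna proteins around it, which bind chlorophyll and pass light energy to the reaction centres, are known as heat-sensitive parts of the cell.

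The 6 libraries did not separate cleanly by time. Replicates b and c at 3 d correlated with each other across genes at r = 0.965, whereas replicate a at 3 d correlated with them at 0.926 to 0.927 and with the 1 d libraries at 0.931 to 0.934. At 1 d, replicates b and c correlated at 0.968 and replicate a with them at 0.942 to 0.945. The labels do not say what the letters mean or why b and c lie closer together. The main counts are therefore also given without replicate a at 3 d. Relative depth, read from the steps of low FPKM values, was 1.12 to 1.43 times that of replicate a at 1 d in the other 5 libraries. The leaf label was checked against marker genes. The summed FPKM of 12 photosystem and chlorophyll-binding genes was 28929 to 32796 at 1 d and 15048 to 21865 at 3 d, and none of them was at 0 in any of these libraries.

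Of 19550 genes tested with limma and Benjamini-Hochberg adjustment, 47 (0.240%) were differentially expressed (DEGs), with an adjusted p no higher than 0.01 and at least a 2-fold change. At 3 d 26 of them were up-regulated (0.133%) and 21 were down-regulated (0.107%), as shown in the plot of fold change against p. With median-of-ratios scaling the split was 19 higher and 23 lower, and with quantile normalization it was 19 and 24. Over all genes tested the median log2 fold change was 0.086 with the deposited scaling and -0.003 with median-of-ratios factors. All fold changes were taken on the log2(FPKM + 1) scale, so those of weakly expressed genes are understated. At an adjusted p of 0.05 there would be 226 DEGs (1.16%).

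**Figure D1:**
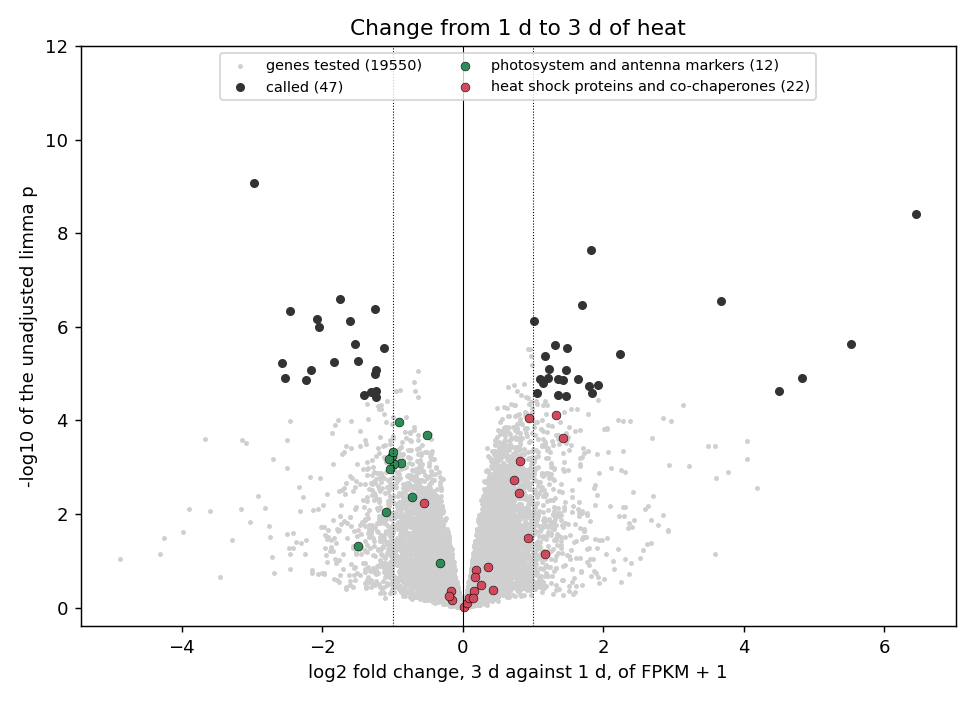
Log2 fold change of FPKM + 1 from 1 d to 3 d (x axis) against -log10 of the unadjusted limma p (y axis) for the 19550 genes tested, with the 47 called genes in black, 12 photosystem and antenna genes in green and 22 heat shock proteins and co-chaperones in red. The green points all lie left of 0, and none of the green or red points is among the called genes.

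The count of DEGs depended on single libraries. Without replicate a at 3 d there were 100 higher and 89 lower (0.972% of the genes then tested), and 45 of the 47 genes remained. Without replicate a at 1 d there were 46 higher and 22 lower. Leaving out replicate b or c had the opposite effect, with 3 higher and 2 lower without b at 1 d, 6 and 2 without c at 1 d, 4 and 5 without b at 3 d, and 3 and 6 without c at 3 d. All 47 genes kept their direction in each of these fits in which they were tested. Since their groups did not overlap, leaving out a library could not have reversed it.

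**Figure D2:**
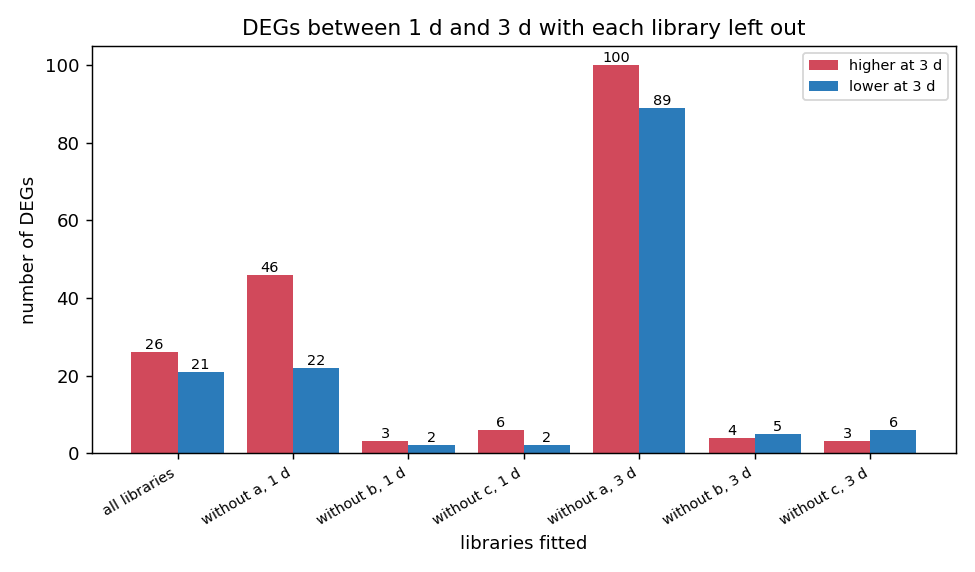
Number of DEGs between 1 d and 3 d (y axis, bars from 0) that were higher (red) or lower (blue) at 3 d, with all libraries and with each library of the 2 time points left out. The bars are tallest without replicate a at 3 d (100 and 89) and fall to 6 or fewer without any of the b or c libraries.

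In all 47 DEGs the 3 libraries at 3 d lay beyond the 3 libraries at 1 d. This arrangement was seen in 19.0% of the genes tested in the higher direction and 8.29% in the lower direction. Genes called from these same libraries at these thresholds largely have to show it, so it adds no support. Annotation is thin for these genes. Of the 47, 5 carry a protein name, 18 carry a name or a pathway or process term, and 29 carry neither in the tables used.

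The 5 DEGs with the largest rises were at 3.30 FPKM or less at 1 d. The FPKM of gene27786, for which no name was found, was 1.32, 0.903 and 0.767 at 1 d and 119, 191 and 224 at 3 d. It had been 756, 2110.2 and 2000.4 before heat, so that the level at 3 d was above 1 d in every library and still below every library at 0 d. Its log2 fold change was 6.45 ± 0.37 (SE, n = 3 per group), with a limma adjusted p of 3.7e-05, and 18 of the 20 other fits called it.

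The same order of levels was seen in gene22820, also without a name. Its FPKM was 1.18, 0.563 and 0.369 at 1 d and 27.8, 123 and 128 at 3 d, against 157, 352 and 336 before heat. Its log2 fold change was 5.53 ± 0.60 (SE, n = 3), with a limma adjusted p of 0.0031, and 13 of the 20 other fits called it. Replicate a at 3 d was the lowest of its group but still above all libraries at 1 d.

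A pair of genes was higher at 3 d than at 0, 1 or 5 d. The consecutive IDs gene25690 and gene25691, both without a name, had FPKM values of 0.484 to 3.30 and 0 to 2.25 at 1 d. At 3 d gene25690 was at 41.8, 126 and 114 and gene25691 at 27.8, 56.6 and 72.3. At 5 d they were at 3.27 to 13.2 and 0 to 1.15. Before heat gene25690 had been at 38.2, 18.1 and 11.7 and gene25691 at 21.8, 4.90 and 5.24, above every library at 1 d. Replicate a before heat was thus close to replicate a at 3 d in both. Their log2 fold changes were 4.83 ± 0.63 and 4.50 ± 0.63 (SE, n = 3), with limma adjusted p of 0.0066 and 0.0089. Of the 20 other fits, only 8 called gene25690 and 6 called gene25691. The deposited table does not show whether neighbouring copies share reads, so these may not be separate observations.

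In gene17210, the next DEG in size, FPKM went from 0, 0.448 and 0.376 to 8.18, 21.1 and 19.6, and the log2 fold change of 3.68 ± 0.32 (SE, n = 3, limma adjusted p of 0.0011) was called in 17 of the 20 other fits.

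The transcript newGene_8058, which is not an annotated gene, was listed at 0 at 0, 1 and 5 d and at 2.66, 2.35 and 2.63 FPKM in the libraries at 3 d. No fold is given for a group listed at 0, and the limma adjusted p was 1.5e-04. It was outside the genes tested when a library at 3 d was left out, since it then no longer reached 1 FPKM in 3 libraries.

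**Figure D3:**
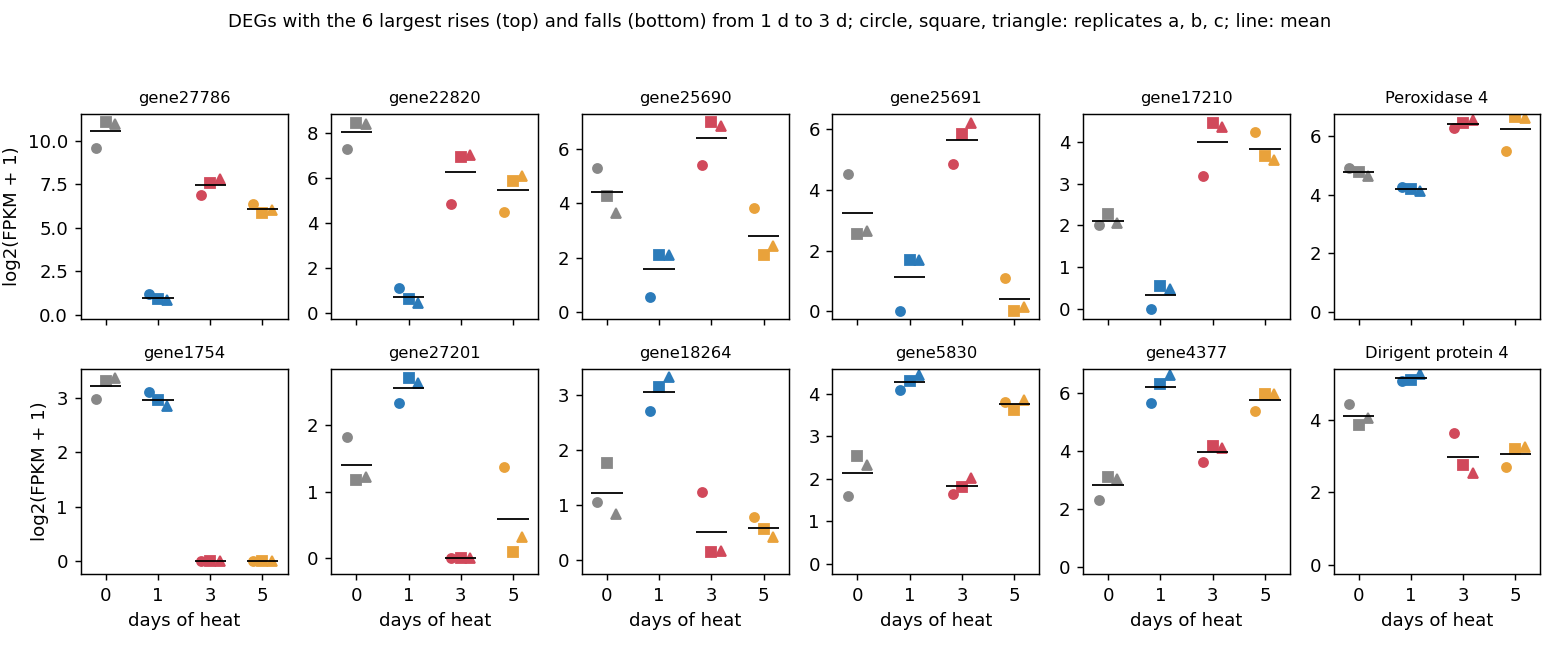
Expression as log2(FPKM + 1) (y axis, a separate scale for each gene) at 0, 1, 3 and 5 d (x axis) for the 6 DEGs with the largest rises (top) and the 6 with the largest falls (bottom) from 1 d to 3 d. Circles, squares and triangles are replicates a, b and c and the line is their mean: in each panel the red points (3 d) lie wholly above or below the blue points (1 d).

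Among the DEGs with a protein name, 3 rose. Peroxidase 4 (LOC107405097), of the class of secreted peroxidases that use hydrogen peroxide to oxidise phenolic compounds such as lignin precursors, was at 18.1, 17.2 and 16.6 FPKM at 1 d and at 76.9, 86.7 and 93.4 at 3 d. The values within each time point were close together and the groups were far apart. The log2 fold change was 2.24 ± 0.26 (SE, n = 3) with a limma adjusted p of 0.0038, and 12 of the 20 other fits called it. It was the only DEG among the 43 tested genes listed under phenylpropanoid biosynthesis, whose median log2 fold change was -0.001. Without replicate a at 3 d there were 2, both higher, beside 0.514% of all genes then tested.

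Auxin response factor 5 (LOC107420386), a transcription factor that carries the response to auxin and is known from Arabidopsis for its part in vascular patterning, rose from 6.95, 5.91 and 6.30 FPKM to 14.1, 24.6 and 20.8. The groups did not overlap, and replicate a was the lowest at 3 d. Its log2 fold change was 1.46 ± 0.18 (SE, n = 3, limma adjusted p of 0.0056), and 11 of the 20 other fits called it. It was the only DEG of 64 tested genes listed under plant hormone signal transduction, whose median was -0.02. In the fit without replicate a at 3 d there were 4 DEGs among these 64, all higher, beside 0.514% of all genes then tested. The median was then 0.05.

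The zinc finger protein with A20 and AN1 domains (LOC107417576), a stress-associated protein, was the most abundant of the named DEGs. Its FPKM was 1093, 1044 and 1027 at 1 d and 2088, 2457 and 2629 at 3 d, a log2 rise of 1.17 ± 0.14 (SE, n = 3, limma adjusted p of 0.0038). It had been at 186 to 213 before heat and was at 1731 to 2139.5 at 5 d. Of the 20 other fits, 10 called it. None of the other 78 tested genes in the study's list of transcription factors, which does not hold auxin response factor 5, was a DEG. The list as a whole had a median log2 fold change of 0.18 (0.089 with median-of-ratios scaling) beside 0.086 for all genes. By library it was 0.03 in replicate a and 0.25 in both b and c at 3 d relative to the mean at 1 d. Without replicate a it was 0.33, and 2 of the 77 genes then tested were DEGs, both higher, beside 0.514% of all genes. Its members had been listed for their change in these or in the ‘HR’ libraries.

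Other rises carry only a process term. The pair gene32435 and gene33063, both listed under proteolysis, were at 1.51 to 2.75 and 0.913 to 0.983 FPKM at 1 d and at 8.77 to 18.3 and 4.67 to 6.05 at 3 d. Their log2 fold changes were 1.93 ± 0.26 and 1.70 ± 0.15 (SE, n = 3), with limma adjusted p of 0.0077 and 0.0011, and before heat both were at 0.144 FPKM or less. In gene9371, listed under terpenoid backbone biosynthesis and the response to wounding, FPKM went from 2.74, 2.99 and 3.01 to 16.4, 7.94 and 10.7 (log2 fold change 1.64 ± 0.21, SE, n = 3, limma adjusted p of 0.0066). A gene of ribosome biogenesis, gene29435, which is not in the shorter list under that term used further on, went from 22.4, 28.8 and 32.5 to 55.5, 68.0 and 63.5 (1.14 ± 0.15 on the log2 scale, SE, n = 3, limma adjusted p of 0.0074). In none of these 4 genes did the groups overlap, as in all the DEGs. Of the 20 other fits, only 4 called gene32435, whereas 14 called gene33063, 10 called gene9371 and 11 called gene29435.

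Of the genes that fell, gene1754, listed under mRNA modification, is the plainest. It was at 7.66, 6.78 and 6.21 FPKM at 1 d and was listed at 0 in all 3 libraries at 3 d and all 3 at 5 d. The limma adjusted p was 1.6e-05, and 17 of the 20 other fits called it. The next, gene27201, has no name and was at 4.08, 5.60 and 5.22 at 1 d and listed at 0 in the 3 libraries at 3 d (limma adjusted p of 0.0047). It was called in 11 of the 20 other fits. In gene18264, also unnamed, FPKM went from 5.56, 7.86 and 8.95 to 1.37, 0.116 and 0.121, with replicate a the highest at 3 d (log2 fold change -2.54 ± 0.33, SE, n = 3, limma adjusted p of 0.0066). Only 8 of the 20 other fits called gene18264.

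Several of the genes that fell were higher again at 5 d than at 3 d, and a pair of these is given here. In gene5830, listed under fatty acid elongation, FPKM was 16.1, 18.6 and 20.8 at 1 d, 2.09, 2.51 and 3.05 at 3 d, and 11.2 to 13.5 at 5 d. Its log2 fold change was -2.46 ± 0.23 (SE, n = 3, limma adjusted p of 0.0011). In gene4377, listed under ubiquitin mediated proteolysis, FPKM was 49.2, 78.4 and 98.0 at 1 d, 11.2, 16.9 and 16.1 at 3 d, and 41.0 to 62.5 at 5 d. The log2 fold change was -2.24 ± 0.29 (SE, n = 3, limma adjusted p of 0.0068). It was the only DEG of the 32 genes tested under that term, whose median was 0.08, and none of 25 ubiquitin ligases was a DEG.

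Dirigent protein 4 (LOC107427588), of a family that steers the coupling of phenolic radicals into lignans, fell from 32.5, 32.8 and 37.3 FPKM to 11.4, 5.70 and 4.79. Replicate a was the highest at 3 d and the groups did not overlap (log2 fold change -2.17 ± 0.27, SE, n = 3, limma adjusted p of 0.0056). Of the 20 other fits, 10 called it. Seed maturation protein PM36 (LOC107418978) fell from 14.2, 13.98 and 15.5 to 6.27, 4.77 and 5.58, and it was at 14.2 to 15.5 before heat as well (-1.25 ± 0.11 on the log2 scale, SE, n = 3, limma adjusted p of 0.0011). Another 3 of the falls carry a transport term. In gene14267, listed under amino acid transmembrane transport, FPKM went from 3.80, 3.10 and 3.73 to 0.315, 0 and 0. In gene22002, listed under divalent metal ion transport, it went from 147, 144 and 152 to 60.8, 43.3 and 53.1, and in gene30162, listed under transmembrane transport, from 50.4, 40.3 and 42.6 to 18.7, 17.6 and 17.7. The limma adjusted p were 0.0017, 0.0046 and 0.0064, and these genes were chosen after their values were seen.

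Photosystem and antenna genes were lower at 3 d, though none was a DEG at the thresholds used. In all 12 genes of photosystem subunits and chlorophyll a-b binding proteins the 3 libraries at 3 d lay below the 3 at 1 d, both with the deposited scaling and after median-of-ratios scaling, whereas 8.29% and 13.1% of all genes tested did so. The protein names that define this list come from the study's tables of genes that changed in ‘HS’ or ‘HR’, so its direction is not independent evidence. The median log2 fold change was -0.98 (-1.09 with median-of-ratios scaling and -0.67 with quantile normalization), and the limma adjusted p ranged from 0.017 to 0.35. At an adjusted p of 0.05 or less, with no minimum fold, 8 of the 12 were lower, beside 0.982% of all genes tested. Replicate a was the highest library at 3 d in 11 of the 12. Without it the median was -1.16, and 5 of the 12 were DEGs, all lower, beside 0.458% of the 19442 genes then tested.

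The individual genes named here were chosen after their values were seen. CP26 (LOC107424276), a minor antenna protein of photosystem II, was at 2272, 2222 and 2291 FPKM at 1 d and at 1551, 956 and 884 at 3 d. Its log2 fold change was -1.05 ± 0.22 (SE, n = 3, limma adjusted p of 0.034, and 4.4e-05 to 0.59 over the other fits). A second CP26 gene (LOC107405503) had nearly the same values, 2113, 2039 and 2134 against 1480.5, 899 and 808, and whether the 2 share reads cannot be told from the table. Subunit IV of photosystem I (LOC107417894) was at 347, 263 and 265 at 1 d and at 161, 143 and 159 at 3 d, with the lowest adjusted p of the list (0.017, limma). CP24 (LOC107427642), another minor antenna protein, was at 2003, 2053 and 1995 and then at 1394, 918 and 817.

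In 9 of the 12 genes the level at 1 d had been above that before heat, with all libraries at 1 d above all at 0 d. CP26 had been at 1524, 1229.6 and 1209.8 before heat, and subunit IV of photosystem I at 101, 79.4 and 76.8. An exception was subunit III of photosystem I (LOC107418592), which was at 912, 767 and 718 before heat, 773, 664 and 688 at 1 d and 534, 352 and 296 at 3 d. The smallest difference was in the 10 kDa protein of photosystem II (LOC107423325), at 7302, 6949.5 and 7123 at 1 d and 6186, 5378 and 5578 at 3 d. In bulk leaf RNA, fewer cells of a type and less RNA per cell cannot be told apart.

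**Figure D4:**
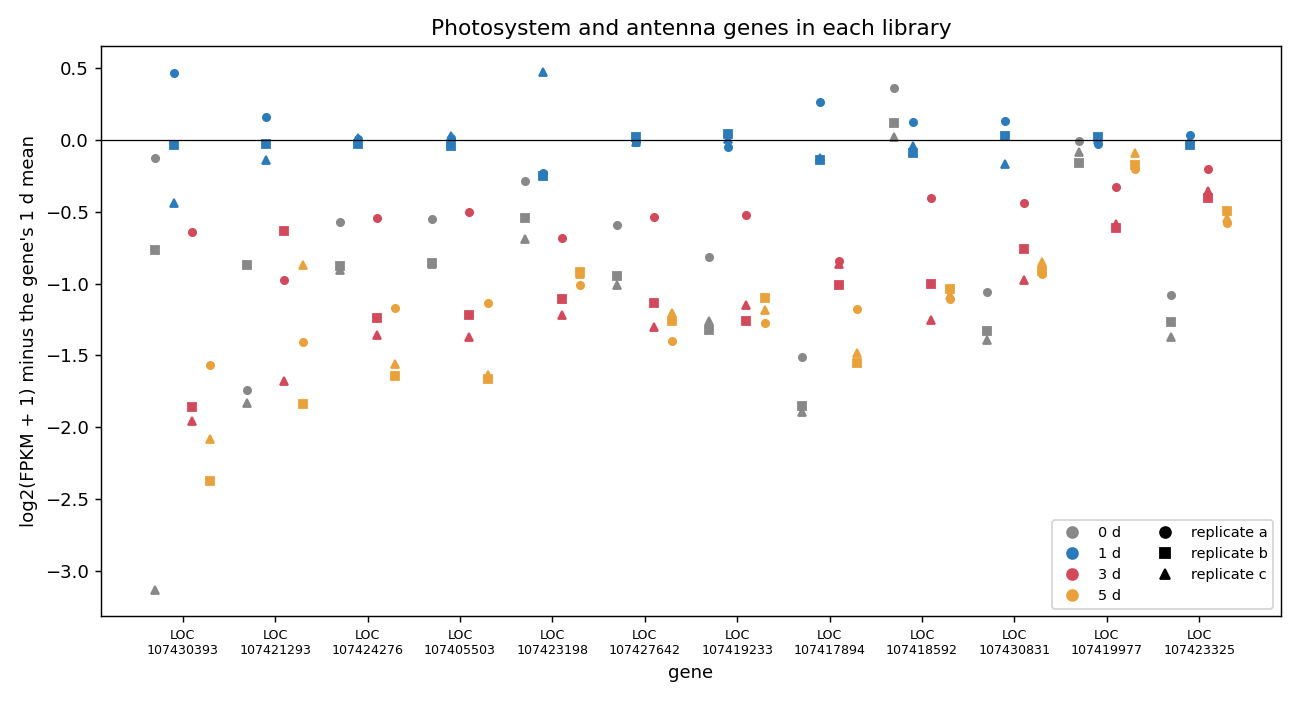
Log2(FPKM + 1) of 12 photosystem and antenna genes (x axis) in each library, minus the gene's mean at 1 d (y axis), coloured by time point with a marker for each replicate. The red points (3 d) lie below the blue points (1 d) in all 12 genes, with the red circle (replicate a) nearest to the blue points in most.

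The wider lists showed the same order. Of 28 tested genes listed under photosynthesis none was a DEG, 14 lay wholly lower at 3 d and 0 wholly higher (8.29% and 19.0% of all genes tested), and the median log2 fold change was -0.58. Of 12 under antenna proteins 7 lay wholly lower and 2 wholly higher, with a median of -0.61. Without replicate a at 3 d, 3 of the 28 and 3 of the 12 were DEGs, all lower, beside 0.458% of the genes then tested, and the medians were -0.77 and -0.71. These lists share 7 genes with the 12 above. The unnamed antenna gene gene6414 came closest to being a DEG, at 2808, 3329 and 3326 FPKM and then 1751, 1418 and 1332 (limma adjusted p of 0.011). Under porphyrin and chlorophyll metabolism 20 genes were tested with 0 DEGs and a median of -0.37. The genes of carbon fixation differed less, with a median of -0.13 over 34 genes, and by library it was 0.25 in replicate a and -0.30 and -0.34 in b and c at 3 d relative to the mean at 1 d. Replicate a was thus on the other side of 0 for carbon fixation. Without it the median was -0.31 with 1 DEG, which was lower, beside 0.458% of all genes then tested.

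Markers of other cells were read beside these values, and their part in them was not tested. For 13 genes of secondary cell wall biogenesis the summed FPKM was 44.7 to 47.3 at 1 d and 38.1 to 60.8 at 3 d, with 0 DEGs. For 15 genes of nucleosome assembly, which packs newly made DNA, it was 1709 to 1916 at 1 d and 783 to 1555 at 3 d. None was a DEG, 7 of the 15 lay wholly lower at 3 d beside 8.29% of all genes, and the median log2 fold change was -0.28. By library it was -0.72 in replicate a and -0.13 and -0.20 in b and c at 3 d, and without replicate a it was -0.17.

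None of the named heat shock proteins and co-chaperones tested was a DEG between 1 d and 3 d, at levels mostly above those before heat. Of 22 heat shock proteins and co-chaperones tested, 20 had all libraries at 1 d above all at 0 d, but these names too come from the study's tables of changed genes, so the direction is not independent evidence. In 9 of the 22 the libraries at 3 d lay wholly above those at 1 d and in 0 wholly below, beside 19.0% and 8.29% of all genes. After median-of-ratios scaling it was 8 above and 1 below, beside 13.2% and 13.1% of all genes. The median log2 fold change was 0.22 (0.12 with median-of-ratios scaling), and at an adjusted p of 0.05 with no minimum fold 4 of the 22 were higher, beside 2.30% of all genes. Without replicate a at 3 d the median was 0.31 and 3 of the 22 were DEGs, all higher, beside 0.514% of the genes then tested.

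The 4 were small HSPs and an HSP70. HSP22.0 (LOC107424261), a class IV small HSP of the kind found in the endoplasmic reticulum, was at 71.3, 50.8 and 42.0 FPKM at 1 d and at 179, 120.5 and 115 at 3 d. Its log2 fold change was 1.33 ± 0.21 (SE, n = 3, limma adjusted p of 0.015). A chloroplastic small HSP (LOC107404752) was at 38.0, 19.6 and 22.2 and then at 91.0, 62.4 and 60.1 (1.42 ± 0.26 on the log2 scale, SE, n = 3, limma adjusted p of 0.024). In both, replicate a was the highest library at 1 d and again at 3 d. Another gene with the same chloroplastic name (LOC107428481), not among the 4, was more abundant and did not rise. It was at 111.45 to 163.8 FPKM at 1 d and at 104.3 to 134.5 at 3 d, with overlapping groups. Its log2 fold change was -0.16 ± 0.20 (SE, n = 3, limma adjusted p of 0.69).

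The 17.6 kDa class II HSP (LOC107420073) stayed near the limit of the filter, at 0.452 to 0.539 FPKM at 1 d and 1.47 to 2.16 at 3 d (limma adjusted p of 0.016). The heat shock cognate 70 kDa protein (LOC107405906) was at 9.25, 8.17 and 7.15 and then at 11.2, 18.3 and 16.9 (limma adjusted p of 0.035). Its neighbour by ID, a 70 kDa HSP (LOC107406481), was at 26.6, 16.5 and 14.96 and then at 29.3, 54.9 and 50.4, with a 95% interval of the log2 fold change from -0.12 to 2.44. HSP83 (LOC107430166), an HSP90 that keeps client proteins such as receptors and kinases in an active shape, was at 76.5, 54.3 and 45.2 and then at 82.7, 105 and 98.7 (limma adjusted p of 0.052). The 15.4 kDa class V HSP (LOC107419886) went the other way, from 45.7, 67.8 and 64.4 to 47.3, 36.4 and 36.1 with overlapping groups (limma adjusted p of 0.086).

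**Figure D5:**
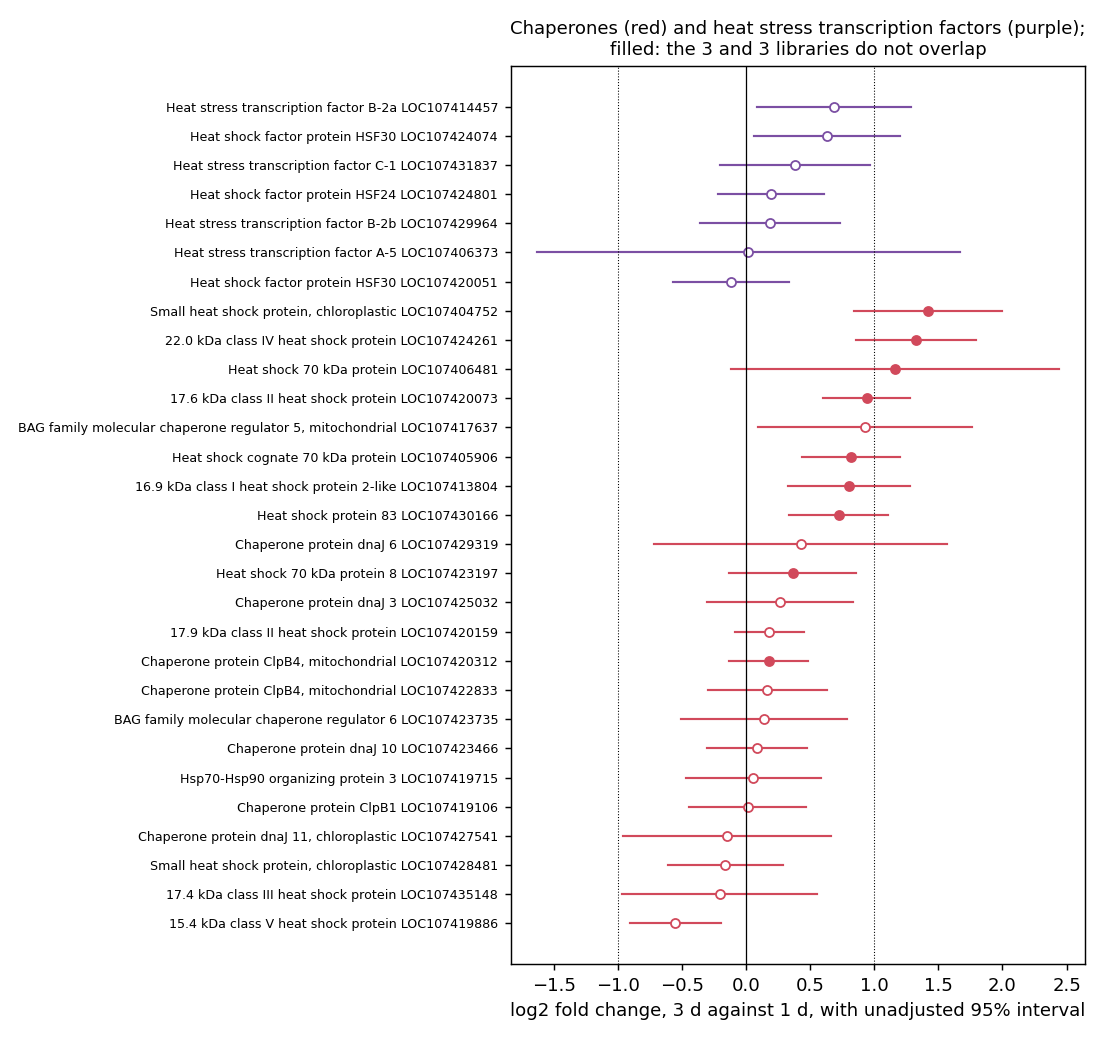
Log2 fold change from 1 d to 3 d (x axis) with its unadjusted 95% interval for 22 heat shock proteins and co-chaperones (red) and 7 HSFs (purple). Filled points, of which there are 9, are genes whose libraries at 3 d and 1 d do not overlap; dotted lines mark a fold change of 2, which the HSF points do not reach.

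None of the 7 HSFs tested was a DEG, and in all 7 the groups overlapped. Their median log2 fold change was 0.19, but by library it was -0.11 in replicate a at 3 d and 0.53 and 0.45 in b and c relative to the mean at 1 d. The median without replicate a at 3 d was 0.44. HSF B-2a (LOC107414457), of a class of HSFs known as repressors, showed the same split. It was at 14.6, 12.1 and 12.8 FPKM at 1 d and at 12.3, 30.7 and 26.9 at 3 d (log2 fold change 0.69 ± 0.27, SE, n = 3, limma adjusted p of 0.18). When replicate a at 3 d was left out, its log2 fold change was 1.07 with an adjusted p of 0.0043, within a range of 4.5e-04 to 0.76 over the other fits, and in that fit it was the only DEG of the 7. HSF C-1 (LOC107431837) was at 37.9, 53.2 and 53.4 and then at 39.1, 79.3 and 77.8 (limma adjusted p of 0.43), and HSF B-2b (LOC107429964) at 13.6, 11.5 and 12.5 and then at 9.85, 17.2 and 17.5 (limma adjusted p of 0.71). The HSF30 gene LOC107424074 was at 2.86, 1.99 and 1.73 and then at 2.27, 5.19 and 4.77 (limma adjusted p of 0.19). The remaining HSFs did not have both b and c at 3 d above all libraries at 1 d. The more abundant HSF30 gene LOC107420051 was at 19.3 to 20.9 and then at 17.3 to 20.2 (log2 fold change -0.12, limma adjusted p of 0.79). HSF24 (LOC107424801) was at 18.2 to 28.96 and then at 21.5 to 27.7 (limma adjusted p of 0.59). HSF A-5 (LOC107406373) was at 5.43 to 11.4 and then at 5.84 to 11.2 (limma adjusted p of 0.99).

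Primers for qRT-PCR had been made for 9 genes, of which 6 could be paired with IDs, and none of these was a DEG between 1 d and 3 d. The 16.9 kDa class I HSP (LOC107413804) was at 33.8, 31.3 and 31.1 FPKM and then at 39.5, 70.4 and 65.4 (limma adjusted p of 0.068). HSP70-8 (LOC107423197) was at 27.8, 23.1 and 23.5 and then at 29.7, 33.0 and 33.6, and neither gene's groups overlapped. The ubiquitin ligase RHA2A (LOC107413313), at 18.2, 13.3 and 11.4 and then at 15.3, 21.9 and 19.5, and bHLH48 (LOC107432409), at 21.7, 27.5 and 28.5 and then at 32.5, 20.8 and 18.7, overlapped. Their 95% intervals of the log2 fold change ran from -0.03 to 0.82 and from -0.57 to 0.30.

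The remaining lists held few DEGs, as did the genes tested as a whole (0.240%). Over 33 tested genes under the response to heat, 28 had a log2 fold change above 0, with a median of 0.26 (0.16 with median-of-ratios scaling) and 0 DEGs, beside 60.8% of all genes above 0. Over 55 genes of protein processing in the endoplasmic reticulum the median was 0.18 with 0 DEGs. Without replicate a at 3 d 3 of them were DEGs, all higher, beside 0.514% of all genes then tested. The 12 genes of the response to hydrogen peroxide had a median of 0.38 (0.29 with median-of-ratios scaling). For 12 genes of ribosome biogenesis listed for ‘HR’, without gene29435, it was 0.47 (0.37 with that scaling). Of these 12, 7 lay wholly higher and 0 wholly lower (19.0% and 8.29% of all genes), with 0 DEGs. After median-of-ratios scaling it was 6 and 0, beside 13.2% and 13.1% of all genes. Of 1063 genes in the 47 lists used, 965 were tested. Among these, 3 were DEGs that rose and 1 was a DEG that fell, beside 0.133% and 0.107% of all genes tested.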

How the data were processed

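The series holds leaf RNA libraries of ‘HS’ from 0, 1, 3, 5 and 7 d of heat, 3 at each time. Per the labels reads were checked with FastQC and trimmed with Trimmomatic 0.36. By the methods they were mapped with Bowtie 2 and TopHat 2 and assembled with Cufflinks, and the authors deposited FPKM per gene and library. The genome build and the versions of the mapping tools are not given in the sources used here. All 15 columns were mapped to samples.

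Tested genes reached 1 FPKM in 3 or more of the 12 libraries at 0 to 5 d. They were tested as log2(FPKM + 1) with limma 3.58.1 in R 4.3.3 (1 mean per time point, intensity trend, 8 residual degrees of freedom, Benjamini-Hochberg over all 19550 genes). No count test was used, since FPKM are not counts. Tables used pandas 2.3.3 and numpy 2.4.6, and plots matplotlib 3.10.9, in Python 3.11.15. The step was tested on simulated data. Relative depth was read from genes at an FPKM of 0.3 or less.

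Members, gene lists and tests were chosen with earlier results of these data known. Lists are pathway and process terms of the other cultivar ‘HR’ and annotation words, from the study's supplementary tables, and some are shortened there. LOC names were paired through these tables for 1240 genes. Terms of single genes may come from either cultivar. Named are the DEGs with the 6 largest rises and 6 largest falls without overlap, the DEGs with a protein name, and up to 4 DEGs per list. The HSFs tested and the qRT-PCR genes that could be paired are also named. All heat shock proteins and co-chaperones tested are plotted, but values are given for only some of them, chosen after they were seen. Genes named outside this rule were chosen after their values were seen. Alternatives were a pseudocount of 0.1, no filter or a mean FPKM of 5, other scalings, fits of 6 or 15 libraries, no trend, blocks, other thresholds and fits without 1 library or letter. A block with median-of-ratios scaling, overlap after that scaling, and list counts without replicate a at 3 d were added after seeing the data.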

Additional observations from a re-analysis of the deposited data

How the results depend on the processing

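The 47 DEGs (26 higher, 21 lower) kept their direction in all 1012 values over the other settings, and their call in 574. Since their groups did not overlap, leaving out libraries could not reverse a direction. The looser thresholds keep every call by definition. The kept directions are therefore no measure of stability. The count was 29 (13 higher) without the filter on low FPKM, 30 (15 higher) at a mean FPKM of 5 or more, 8 (4 and 4) in a fit of the 6 libraries, and 226 (139 and 87) at an adjusted p of 0.05. Leaving out 1 library or letter gave 0 to 906 DEGs, 0 to 488 higher and 0 to 418 lower. The highest were without letter a at every time point and the lowest without letter b or c, where limma called 0, with 468 and 441 genes that had an unadjusted p up to 0.05 and at least a 2-fold change. Same-letter deviations at 1 d and 3 d correlated across genes at only -0.038 to 0.016. Whether a letter marks paired libraries or a shared batch cannot be told from this. The replicate block by letter gave 22 DEGs (10 and 12), that with median-of-ratios scaling 23 (9 higher), and a block of a against b and c 84 (48 and 36). The median of all genes was 0.026 without the filter, -0.003 with median-of-ratios scaling and 0.011 with quantile normalization. The median of the heat shock list was 0.12 and that of the response to heat 0.16 with median-of-ratios scaling. Without 1 library or letter they ran from 0.13 to 0.48 and from 0.18 to 0.40. Of the 12 photosystem and antenna genes the DEGs, all lower, were 3 at an adjusted p of 0.05, 1 with the block of a against b and c, 1 with median-of-ratios scaling and the letter block, and 0 to 6 without 1 library or letter. Of the heat shock list they were 2 at an adjusted p of 0.05, 1 with each of the 3 blocks, and 0 to 7 without 1 library or letter. Fits without a letter at 3 d or 1 d leave 2 libraries in a group and take their spread from all groups. At low FPKM a value rests on few reads, and no interval for a single library could be computed. The cause of these dependences was not tested.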

Other observations

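An adjusted p of 0.05 and a fold change of 2 or more were reached by 226 genes, 139 of them higher at 3 d. Several of those outside the 47 DEGs have a name or term, and the ones given here were chosen after their values were seen. The pair gene24479 and gene28204, both listed under the responses to water deprivation and to cold, were at 4.12 to 7.09 and 5.39 to 8.32 FPKM at 1 d. At 3 d gene24479 was at 22.2, 95.7 and 95.0 and gene28204 at 22.4, 99.2 and 99.9, with replicate a the lowest in both. Before heat they were at 177 to 260.3, and at 5 d at 175 to 318. Their limma adjusted p were 0.012 and 0.017, and 9.9e-05 and 2.5e-04 without replicate a at 3 d. Over the other fits they ran from 7.8e-06 to 0.49 and from 7.9e-06 to 0.53. Their values are so alike that shared reads are possible, and this was not tested. A gene of galactose metabolism, gene23606, was also lowest in replicate a at 3 d, at 387, 1716 and 1606 against 243, 204 and 188 at 1 d (limma adjusted p of 0.030, 3.3e-05 without that library, and 6.9e-06 to 0.57 over the other fits). At 5 d it was at 2136, 2903 and 2879.

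Genes of hormone and sugar handling were also among them. Abscisic acid 8'-hydroxylase 3 (LOC107419950), which breaks down abscisic acid, was at 13.1, 8.93 and 9.63 FPKM at 1 d, 39.7 in replicate a and 22.8 or less in b and c at 3 d, and 6.97 to 11.0 at 5 d (limma adjusted p of 0.037). The plastid glucose-6-phosphate translocator 2 (LOC107420411), which carries sugar phosphate into plastids, was at 0.682, 4.13 and 3.53, then 12.8 to 20.7, and 0.490 to 0.560 at 5 d (limma adjusted p of 0.017). In both, the libraries at 3 d lay above those at 0, 1 and 5 d, apart from the 2 highest abscisic acid 8'-hydroxylase libraries before heat (24.1 and 23.9). Caffeic acid 3-O-methyltransferase 1 (LOC107429757), a lignin pathway enzyme, was listed at 0 at 0 d and 3 d and at 4.24, 19.2 and 18.1 at 1 d (limma adjusted p of 0.024). Its values at 5 d were 0.275, 0 and 5.86. MLP-like protein 43 (LOC107429335) was at 154, 65.2 and 67.0 and then at 13.03, 14.9 and 16.1 (limma adjusted p of 0.024). Among the 20 other fits, 1 called the hydroxylase, 1 the translocator, 2 MLP-like protein 43 and 0 the methyltransferase.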
